A study of Mus musculus with 18 samples.

Results

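The 10 genes described here are used as markers of retinal ganglion cells and were followed across sorted microglia and the other cells of the retina. They are Nefl, Nefm, Nefh, Pou4f1, Rbpms, Sncg, Thy1, Slc17a6, Stmn2 and Gap43, 10 of the 54532 genes in the count table, found there by matching Ensembl gene identifiers to mouse symbols. They were named for their known use as ganglion cell markers, but with earlier results of these data known. The question was why some of them were not lower in the sorted microglia. All 18 libraries came from retinas of rd1 mice on the FVB background at postnatal day 30. All groups thus carry the rd1 mutation of Pde6b, under which rods degenerate first and cones follow. The viruses were injected under the retina. The GFP groups received AAV8-GFP, a virus carrying green fluorescent protein, and the TGFB1 groups received AAV8-GFP together with AAV8-TGFB1, a virus carrying transforming growth factor beta 1. No group without virus was analysed here. The promoters in the viruses, the number of mice behind each library and the antibodies used for sorting are not stated in the labels. Retinas were dissociated with papain and sorted after antibody staining into microglia, with 7 GFP and 7 TGFB1 libraries, and non-microglia, with 2 GFP and 2 TGFB1 libraries.

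Retinal ganglion cells are the output neurons of the retina, and their axons form the optic nerve. Such long axons are filled with neurofilaments, polymers of a light, a medium and a heavy subunit. Microglia are the resident macrophages of the retina, and they take up debris and parts of neurons. Sorted microglia are a standard source of microglial RNA, but a sorted fraction of dissociated tissue can carry RNA of other cells.

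Nefl and Nefm, the light and medium neurofilament genes, cannot be counted apart over their whole length without strand information. In GENCODE M21, on the GRCm38 build, Nefl (ENSMUSG00000022055) runs from 68083863 to 68089095 on the plus strand of chromosome 14, and Nefm (ENSMUSG00000022054) from 68082590 to 68124846 on the minus strand. The last exon of the transcript Nefm-202 covers 1108 of the 1147 bases of the first exon of Nefl, from 68083863 to 68084970. These 1108 bases are 32.8% of the 3380 exon bases of Nefl and 19.2% of the 5782 exon bases of Nefm. In Nefl, 100 of them are 5′ untranslated and 1008 are coding. In Nefm-202, 144 are coding and 964 are 3′ untranslated, and the transcript Nefm-201 holds none of them. The stretch that is coding on both strands is shown because a read from it cannot be given to either gene by sequence alone. It lies in the first exon of Nefl on the plus strand, at chr14:68084827-68085009. Capitals mark the 144 bases that are coding in both genes, and the lower case letters are the next 39 bases of the Nefl exon, which lie in an intron of Nefm.
Nefl exon 1, 3′ part: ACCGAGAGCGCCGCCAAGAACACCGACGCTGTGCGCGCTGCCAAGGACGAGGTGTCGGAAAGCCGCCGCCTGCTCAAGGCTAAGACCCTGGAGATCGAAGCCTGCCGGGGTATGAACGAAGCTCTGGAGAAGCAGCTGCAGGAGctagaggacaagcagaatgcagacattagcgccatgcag

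**Figure D1:**
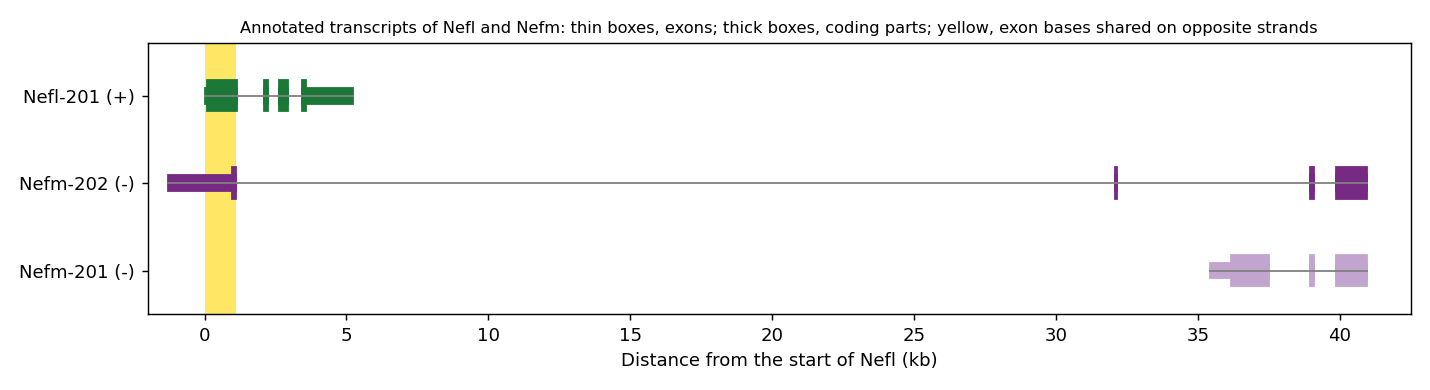
Annotated transcripts of Nefl and Nefm by distance from the start of Nefl in kb, with thin boxes for exons, thick boxes for coding parts and strand signs beside the names. The yellow band marks the 1108 exon bases shared on opposite strands, which fall in the first exon of Nefl and the last exon of Nefm-202 but in no exon of Nefm-201.

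Whether the authors counted reads by strand is not given in the sources used here. Of 263 genes whose exons lie wholly inside the exons of a gene on the other strand with at least 100 counts, 216 had at least 10 counts and 6 had none. Nefl had 686 counts over the 18 libraries and Nefm had 318, and the Nefm counts were 28.6% to 85.2% of the Nefl counts in single libraries. Over the libraries of each fraction, Nefm had 261 counts against 570 of Nefl in microglia, or 45.8%, and 57 against 116 in non-microglia, or 49.1%. The ratio of the genes thus lay close in both fractions. How many reads of each gene came from the shared bases was not tested, and a result for Nefm is not independent of one for Nefl. None of the other 8 genes shares exon bases with another annotated gene.

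The other 8 are protein-coding genes counted over all their annotated exons, with positions on GRCm38. Pou4f1 (ENSMUSG00000048349) and Sncg (ENSMUSG00000023064) are also on chromosome 14, from 104461676 to 104467999 and from 34370274 to 34374789, both on the minus strand. Nefh (ENSMUSG00000020396) lies on chromosome 11 from 4938754 to 4948064, minus strand, and Rbpms (ENSMUSG00000031586) on chromosome 8 from 33782643 to 33929863, minus strand. Thy1 (ENSMUSG00000032011) lies on chromosome 9 from 44043384 to 44048579, plus strand, and Slc17a6 (ENSMUSG00000030500) on chromosome 7 from 51622006 to 51671119, plus strand. Stmn2 (ENSMUSG00000027500) lies on chromosome 3 from 8509360 to 8561606, plus strand, and Gap43 (ENSMUSG00000047261) on chromosome 16 from 42248442 to 42340651, minus strand.

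Counts of the 10 genes were low. Total counts ran from 1582451 to 3064027 per library, and the 10 genes together had 50 to 147 counts per library, 1783 in all. A single read was worth 0.291 to 0.700 CPM (counts scaled to 1e+06 per library, on TMM-scaled library sizes), and a floor of 3 counts corresponded to 0.873 to 2.10 CPM. The sort itself was clear: 12 microglial marker genes summed to 47749 ± 2834 CPM (SD, n = 7) in GFP microglia and 67.1 ± 2.75 CPM (n = 2) in GFP non-microglia. The labels do not say that libraries of a group came from separate mice, so a p-value weighs a difference against the spread of libraries alone, which may be technical.

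In GFP retinas, Nefl, Nefm and Slc17a6 were higher in microglia than in non-microglia and Gap43 was lower. These are 4 of the 5 genes that passed the filter on low counts. Slc17a6 had at most 3 counts in any non-microglia library, and Gap43 at most 6 in any microglia library. Both passed the filter only through the fraction where they were high, which by itself favours a call in that direction. In TGFB1 retinas, Rbpms and Slc17a6 were higher in microglia and Gap43 was again lower. The other 5 genes (Nefh, Pou4f1, Sncg, Thy1 and Stmn2) had too few counts to be tested. Calls in either direction were common between such different cells. Of 15321 genes tested in GFP retinas, 64.2% were called, with 29.9% higher in microglia and 34.2% lower. In TGFB1 retinas 65.2% were called, with 30.8% higher and 34.4% lower. The 3 members called higher in GFP retinas and the 2 in TGFB1 retinas are to be read against these shares.

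**Figure D2:**
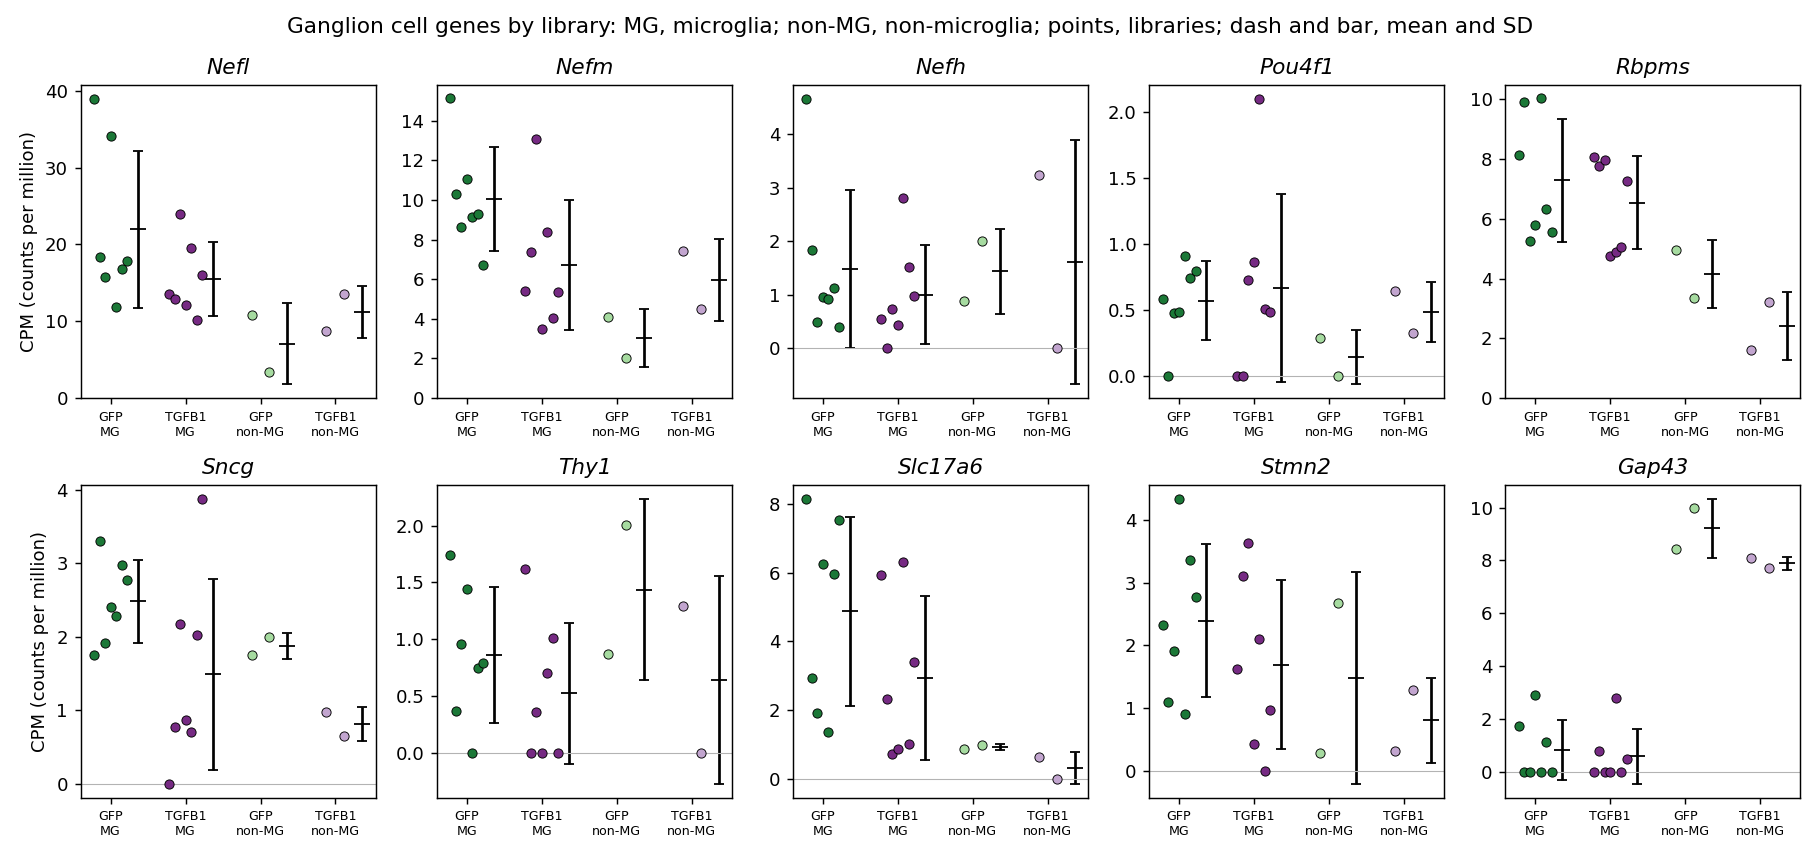
CPM of each of the 10 genes in every library, by group, with 7 libraries in each microglia group and 2 in each non-microglia group; dashes are group means and bars are SDs. Gap43 is at or under 2.89 CPM in all microglia libraries and between 7.72 and 10.01 CPM in the 4 non-microglia libraries. Slc17a6 has a higher CPM in all microglia libraries than in the non-microglia libraries of the same treatment. For GFP microglia replicate 6 (3 counts) and TGFB1 microglia replicates 4, 5 and 7 (2 counts each), a non-microglia library has the same count.

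Nefl encodes the light neurofilament subunit, on which the other subunits assemble. Its level in GFP microglia had a lowest, median and highest value of 11.9, 17.8 and 39.0 CPM over 7 libraries, and the 2 GFP non-microglia libraries had 10.8 and 3.34 CPM. All 7 microglia libraries lay above both non-microglia libraries. The mean was 21.97 ± 10.3 CPM (SD, n = 7) against 7.05 ± 5.25 CPM (n = 2), and the log2 difference was 1.58 (SE 0.46, 95% interval 0.63 to 2.54; adjusted p = 0.00476 by edgeR's quasi-likelihood test). In TGFB1 microglia the lowest, median and highest Nefl values were 10.1, 13.5 and 23.9 CPM, and the TGFB1 non-microglia libraries had 8.72 and 13.5 CPM. Here the groups overlapped, with 3 of 7 microglia libraries above both non-microglia libraries. The log2 difference was 0.47 (SE 0.43, 95% interval -0.43 to 1.37) and did not pass the test (edgeR, adjusted p = 0.350).

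Nefm encodes the medium subunit, which carries a long tail that projects from the filament. Its level in GFP microglia was 6.74, 9.31 and 15.1 CPM at the lowest, median and highest library, and 4.07 and 2.001 CPM in GFP non-microglia. Again all 7 microglia libraries lay above both others. The log2 difference was 1.67 (SE 0.47, 95% interval 0.71 to 2.64; edgeR adjusted p = 0.00314). In TGFB1 retinas the microglia had 3.46, 5.39 and 13.1 CPM and the non-microglia 7.43 and 4.51 CPM. The groups overlapped, and the log2 difference of 0.19 (SE 0.42, 95% interval -0.69 to 1.06) did not pass (edgeR adjusted p = 0.713). Nefh, the heavy subunit, gave 54 counts over 16 of the 18 libraries. Its mean was 1.48 ± 1.48 CPM in GFP microglia (n = 7) and 1.44 ± 0.798 CPM in GFP non-microglia (n = 2). With TGFB1 the means were 0.997 ± 0.923 and 1.62 ± 2.28 CPM, and a difference in Nefh was not detectable at this depth.

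The calls of both neurofilament genes in GFP retinas rest on 2 non-microglia libraries, of which the second was lower for each. Without that library the log2 difference of Nefl was 1.02 (edgeR adjusted p = 0.111) and that of Nefm 1.29 (adjusted p = 0.0712), and neither passed. The direction was the same. Without the other GFP non-microglia library both calls remained.

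Pou4f1 (Brn3a) encodes a transcription factor that marks most ganglion cells. It gave 22 counts over all 18 libraries, none of them with more than 2.10 CPM. The means were 0.570 ± 0.300 CPM in GFP microglia, 0.145 ± 0.206 CPM in GFP non-microglia, 0.669 ± 0.712 CPM in TGFB1 microglia and 0.484 ± 0.229 CPM in TGFB1 non-microglia. With 9 counts in the GFP microglia and 1 in the GFP non-microglia, the ratio of pooled levels was 3.62, with an exact counting interval of 0.502 to 159. In TGFB1 retinas, with 9 and 3 counts, it was 1.24 (0.310 to 7.14). Both intervals include equal levels. They cover counting error only, since the reads carry no molecular identifiers.

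Rbpms, an RNA-binding protein widely used to label ganglion cell bodies, gave 259 counts and was found in every library. In GFP microglia it had 5.27, 6.33 and 10.04 CPM at the lowest, median and highest library, and in GFP non-microglia 4.94 and 3.34 CPM. All 7 microglia libraries were above both non-microglia libraries. The log2 difference of 0.80 (SE 0.39, 95% interval -0.01 to 1.60) did not pass the test (edgeR adjusted p = 0.0771). In TGFB1 microglia it had 4.76, 7.27 and 8.08 CPM, and in TGFB1 non-microglia 1.62 and 3.22 CPM. Again the groups did not overlap. The log2 difference was 1.43 (SE 0.43, 95% interval 0.53 to 2.33; edgeR adjusted p = 0.00587). Without the first TGFB1 non-microglia library it was 1.04 and did not pass (adjusted p = 0.117).

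Slc17a6 encodes the vesicular glutamate transporter VGLUT2, which loads glutamate into the synaptic vesicles of ganglion cells. It had 1.37, 5.96 and 8.15 CPM in the lowest, median and highest GFP microglia library, and 0.873 and 1.001 CPM, from 3 counts each, in the GFP non-microglia. All 7 microglia libraries were above both in CPM, but GFP microglia replicate 6 also had only 3 counts. The log2 difference was 2.31 (SE 0.88, 95% interval 0.49 to 4.13; edgeR adjusted p = 0.0254). In TGFB1 microglia it had 0.726, 2.33 and 6.30 CPM, and in TGFB1 non-microglia 0.646 CPM, from 2 counts, and 0. All 7 microglia libraries were again above both in CPM, with a log2 difference of 2.91 (SE 1.11, 95% interval 0.62 to 5.19, edgeR adjusted p = 0.0245). TGFB1 microglia replicates 4, 5 and 7 had 2 counts each, as many as the first TGFB1 non-microglia library. The order of these libraries in CPM thus rests on library size. Non-microglia lay at or under the floor of 3 counts, so the size of the fitted difference is uncertain. The ratio of pooled levels was 5.16 in GFP retinas, with an exact counting interval of 2.27 to 14.5, and 8.08 in TGFB1 retinas, with 2.09 to 69.1. Without the first GFP non-microglia library the adjusted p of Slc17a6 was 0.129 (edgeR), and without the second it was 0.103, with log2 differences of 2.25 and 2.42. Without the second TGFB1 non-microglia library the log2 difference was 2.04 (adjusted p = 0.193), and without the first, which leaves the library at 0, it was 5.75.

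Sncg, gamma-synuclein, is a small soluble protein abundant in ganglion cells, and Thy1 is a surface glycoprotein of neurons with which ganglion cells are often purified. Sncg gave 81 counts, with 2.49 ± 0.566 CPM in GFP microglia (n = 7) and 1.87 ± 0.181 CPM in GFP non-microglia (n = 2). With TGFB1 it was 1.49 ± 1.30 and 0.806 ± 0.230 CPM. The ratios of pooled levels, microglia over non-microglia, were 1.37 (0.709 to 2.87) and 1.91 (0.709 to 6.42). Thy1 gave 33 counts in 13 of the 18 libraries, with 0.865 ± 0.597 and 1.44 ± 0.798 CPM in GFP microglia and non-microglia, and 0.527 ± 0.621 and 0.646 ± 0.914 CPM with TGFB1. For both genes, the counting intervals include equal levels.

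Stmn2 (stathmin 2) binds tubulin in growing and regenerating axons, and Gap43 is a membrane protein of growth cones. Both are also made by other neurons. Stmn2 gave 79 counts, with 2.39 ± 1.22 CPM in GFP microglia and 1.48 ± 1.68 CPM in GFP non-microglia, and 1.69 ± 1.35 and 0.805 ± 0.682 CPM with TGFB1. The ratios of pooled levels were 1.70 (0.807 to 3.99) and 2.24 (0.849 to 7.44). Gap43 was the one member called lower in microglia. It had no counts in 4 of the 7 GFP microglia libraries and at most 2.89 CPM in the others, against 8.44 and 10.01 CPM (29 and 30 counts) in the GFP non-microglia. The log2 difference was -3.51 (SE 0.80, 95% interval -5.15 to -1.86; edgeR adjusted p = 0.000492). In TGFB1 retinas it was also at 0 in 4 of 7 microglia libraries, with at most 2.80 CPM, against 8.08 and 7.72 CPM (25 and 24 counts), and the log2 difference was -3.90 (SE 0.87, 95% interval -5.70 to -2.11; edgeR adjusted p = 0.000388). All 7 microglia libraries of each treatment lay below both non-microglia libraries.

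When no filter on low counts was applied, the 5 genes that it removes (Nefh, Pou4f1, Sncg, Thy1 and Stmn2) had log2 differences of -0.03 to 1.56 for 4 of them and -0.76 for Thy1 in GFP retinas. None was called (edgeR, lowest adjusted p = 0.503). In TGFB1 retinas none was called either (lowest adjusted p = 0.438). Calls were less common among all genes of this fit than with the filter. Of its 43454 genes, 10.4% were called higher and 13.95% lower in GFP retinas, and 10.7% and 14.003% in TGFB1 retinas. Beside such shares, the absence of calls among 5 genes says little.

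The scaling of the libraries bears on these calls. With library totals in place of TMM factors, the median log2 difference of all genes moved by -0.50 in GFP and by -0.48 in TGFB1 retinas, and the share of calls that were higher in microglia fell from 46.6% to 29.3% and from 47.3% to 30.5%. Nefl and Nefm remained higher in GFP microglia under that scaling, and Gap43 remained lower in both treatments. Slc17a6 in GFP retinas was at 1.83 and did not pass (edgeR adjusted p = 0.0758), nor did it with limma voom (1.87, adjusted p = 0.0563). In TGFB1 retinas neither Rbpms (0.96, edgeR adjusted p = 0.0576) nor Slc17a6 (2.48, adjusted p = 0.0597) passed with library totals, and the log2 differences of Nefl and Nefm turned to -0.01 and -0.30.

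**Figure D3:**
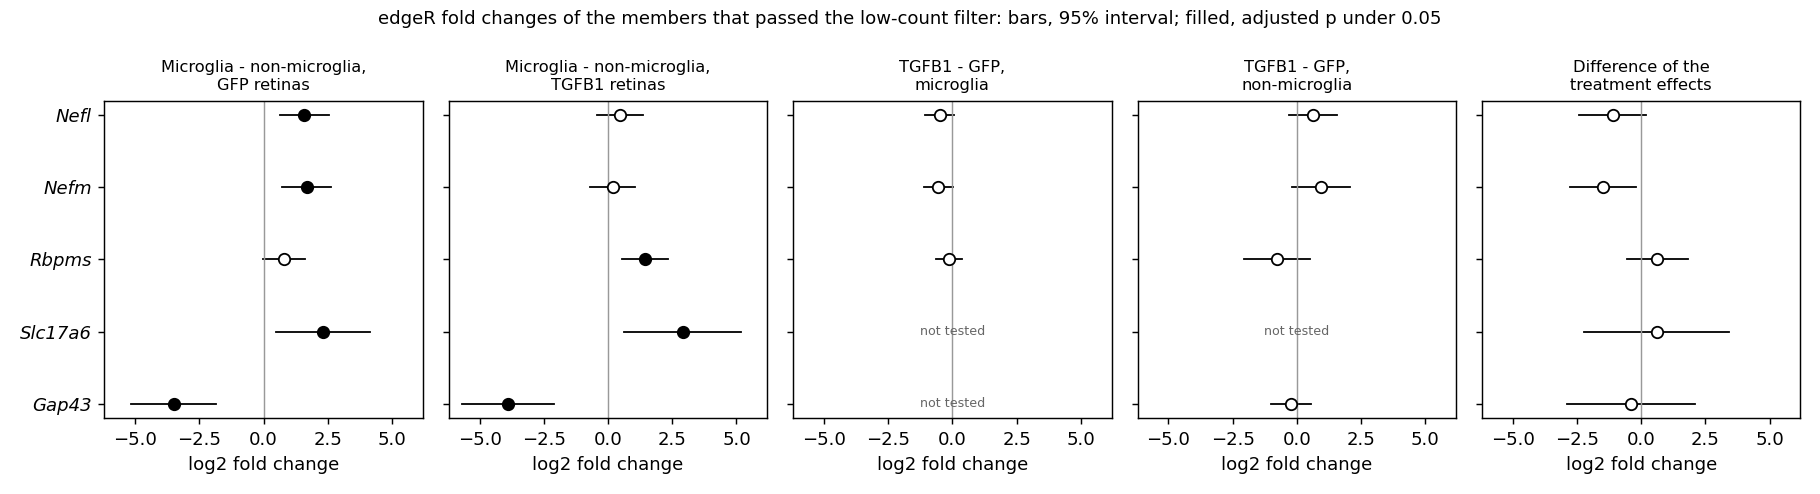
Fitted log2 differences with 95% intervals for the ganglion cell genes that passed the filter in each comparison, from edgeR. Nefl, Nefm and Slc17a6 in GFP retinas, and Rbpms and Slc17a6 in TGFB1 retinas, have intervals above 0 in the comparison of fractions, and Gap43 has intervals below 0 in both.

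Compared per kb of exon, the order of the genes also differed between the fractions. In GFP microglia Nefl stood at 6.50 ± 3.05 CPM per kb (SD, n = 7), followed by Sncg at 2.92, Nefm at 1.74, Rbpms at 1.11, Slc17a6 at 0.903, Gap43 at 0.539, Stmn2 at 0.426, Nefh at 0.371, Thy1 at 0.289 and Pou4f1 at 0.122. Among these neighbours, only Sncg and Nefm were apart by more than their SDs. In GFP non-microglia Gap43 stood first at 6.05 ± 0.729 CPM per kb (n = 2), followed by Sncg at 2.20 and Nefl at 2.09. Rbpms, Nefm, Thy1, Nefh, Stmn2, Slc17a6 and Pou4f1 came next, from 0.631 down to 0.0311. Here the neighbours apart by more than their SDs were Gap43 and Sncg, and Slc17a6 and Pou4f1. Against 21995 protein-coding genes, Nefl in GFP microglia lay above 76.8% and Pou4f1 above 30.9%. Gap43 in GFP non-microglia lay above 75.6%.

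The 10 genes were set beside lists of markers of other retinal cells. Their summed level in GFP microglia was 52.8 ± 17.3 CPM against 30.8 ± 3.40 CPM in GFP non-microglia, or 172%, and with TGFB1 37.6 ± 11.3 against 32.1 ± 1.22 CPM, or 117%. Of these sums, Nefl and Nefm had 21.97 and 10.04 CPM in GFP microglia, against 7.05 and 3.04 CPM in GFP non-microglia. Nefl and Nefm thus carried most of the sum in GFP microglia. With TGFB1 they had 15.4 and 6.72 against 11.1 and 5.97 CPM. Gap43 and Thy1 went the other way in both treatments, and Nefh with TGFB1. Gap43 had 0.822 against 9.22 CPM in GFP retinas. Most other cell type lists were far lower in microglia, but the horizontal cell and T cell lists were not. Mueller glia markers, at 582 ± 203 against 14382 ± 228 CPM in GFP retinas, stood at 4.05%, and at 3.50% with TGFB1, and 10 of 10 were called lower in both. Bipolar cell markers stood at 4.96% and 2.10%, amacrine cell markers at 5.65% and 3.62%, rod markers at 2.46% and 3.61%, astrocyte markers at 5.09% and 2.52%, endothelial markers at 2.95% and 2.22%, pericyte markers at 6.61% and 5.59%, and erythroid genes at 0.540% and 0.517%. Cone markers stood at 17.02% and 26.6%, of which Pde6h and Gngt2 made up 281 of the 304 CPM in GFP microglia; each shares exon bases with a gene on the other strand, Arhgdib and Abi3. The other 6 cone genes stood at 1.45% and 0.959%. The pigment epithelium markers stood at 19.9% and 22.2%. The horizontal cell list, with 2.63 against 2.75 CPM in GFP retinas, stood at 95.9% and 71.9%. The T cell list stood at 201.9% and 296%, but Il7r alone made up 14.7 of 17.2 CPM in GFP microglia and 20.8 of 22.4 CPM with TGFB1, and the other 8 T cell genes stood at 28.7% and 23.4%. Several of these percents in GFP retinas rest partly on microglia replicate 2: without it bipolar markers stood at 2.84%, endothelial markers at 1.90%, erythroid genes at 0.152% and the horizontal cell list at 62.4%. Without TGFB1 microglia replicate 6, amacrine cell markers stood at 2.40% in TGFB1 retinas. Without GFP replicate 2 the 10 ganglion cell genes stood at 155%. Among the 10 genes, Gap43 alone, at 8.91% and 7.35%, lay near the lists that were far lower in microglia. Slc17a6, at 520% and 909%, lay farthest from them. In bulk samples, fewer cells of a type and less RNA per cell cannot be told apart.

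**Figure D4:**
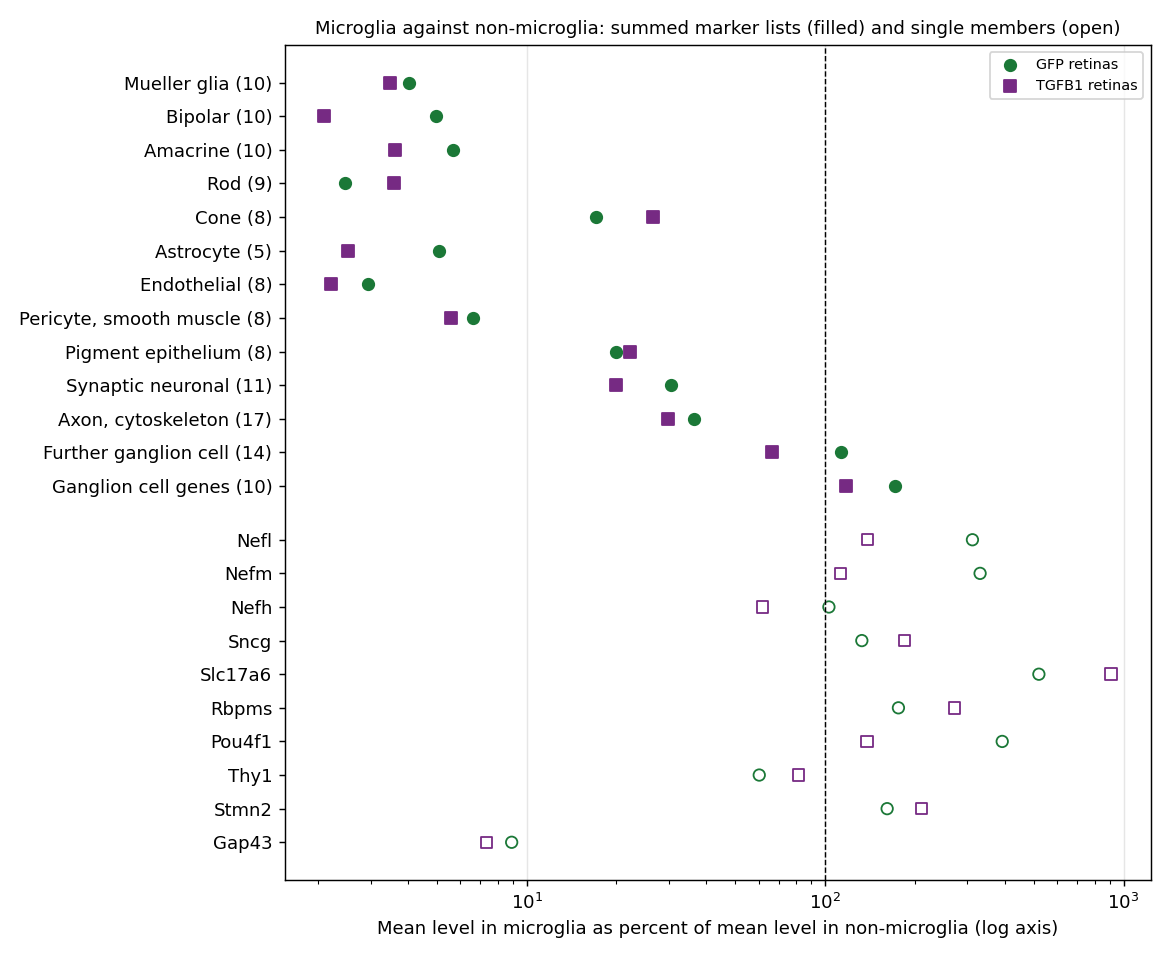
Mean level in microglia as a percent of that in non-microglia on a log axis, for summed marker lists (filled, number of genes in brackets) and for each ganglion cell gene (open), in GFP (circles) and TGFB1 retinas (squares). Mueller, bipolar, amacrine and rod lists lie between 2.10% and 5.65%, while 9 of the 10 ganglion cell genes lie at or above 60.2% in both treatments and Gap43 lies at 8.91% and 7.35%. Not drawn are the horizontal cell list, at 95.9% with GFP and 71.9% with TGFB1, and the T cell list, at 201.9% and 296%. The erythroid and microglia lists are not drawn either.

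Other genes of ganglion cells and of axons did not follow one pattern. A list of 14 further ganglion cell genes summed to 113% of the non-microglia level in GFP retinas and to 66.4% with TGFB1. The first value was 93.9% without GFP microglia replicate 2, which had 89.6 CPM against 24.7 to 49.1 CPM in the other 6 libraries. Chrna6, Chrnb3 and Ebf3 carried most of the GFP microglia sum, with 14.8, 11.05 and 7.41 CPM. In GFP non-microglia they had 7.31, 5.44 and 0.894 CPM, and Rbpms2 and Tubb3 were among those that went the other way. In GFP retinas 6 of the 14 passed the filter, of which 1 was called higher and 2 were called lower in microglia. Among all genes tested 29.9% were called higher and 34.2% lower, so these few calls do not set the list apart. The higher one was Ebf3, a transcription factor of ganglion and amacrine cells, at 7.41 ± 1.79 against 0.894 ± 0.793 CPM (log2 difference 2.92, SE 0.57, edgeR adjusted p = 8.61e-05). Rbpms2, a close relative of Rbpms, was lower at 1.25 ± 1.31 against 11.5 ± 3.06 CPM (log2 difference -3.27, edgeR adjusted p = 5.65e-05). Tubb3, a neuronal beta-tubulin, was lower at 2.08 ± 1.36 against 9.55 ± 1.71 CPM (log2 difference -2.11, edgeR adjusted p = 0.00216). The same 3 genes were called in the same directions in TGFB1 retinas. Each passed the filter only through the fraction where it was high. Rbpms and Rbpms2 thus lay in opposite orders in the fractions.

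Of 17 genes of the axon and its cytoskeleton, 16 passed the filter in the fraction comparisons. In GFP retinas 11 of the 16 were called lower in microglia and 0 higher, beside 34.2% lower among all genes (median log2 difference -2.39), and 15 were lower and 0 higher with TGFB1 (median -3.27). The 4 with the smallest p in GFP retinas were Mapt (tau) with a log2 difference of -3.87, Dpysl3 with -4.41, Map1b with -3.91 and Map2 with -3.61. Of 11 genes of synapses and neuronal membranes, 10 passed the filter, 8 were lower in GFP retinas (median -2.19) and 10 with TGFB1. Among them, Rab3a had -2.31, Vamp2 -2.04 and Snap25 -3.64 in GFP retinas. The median over all 15321 genes was -0.06 in GFP and -0.04 in TGFB1 retinas, and over the 5 members tested 1.58 and 0.47. Of these members, Slc17a6 and Gap43 passed the filter through 1 fraction only, and Nefl and Nefm share exon bases. Over all 10 members, fitted with no filter, the median was 0.73 and 0.37, and the median of all genes in that fit is not given here. The members were chosen with earlier results known, so their medians are a description only.

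Levels of other cells' markers differed between microglia libraries, and so did Nefl. Among GFP microglia, replicates 2 and 5 had the highest Nefl, 39.0 CPM from 67 counts and 34.2 CPM from 71 counts. These libraries also had the highest summed Mueller glia levels, 834 and 902 CPM. In TGFB1 microglia the Mueller level was highest in replicate 6, at 751 CPM, whereas Nefl was highest in replicate 4, at 23.9 CPM. Without these 3 libraries of high Mueller level, 3 members were called higher and 1 lower in GFP retinas, and 2 and 1 in TGFB1 retinas. The microglia libraries that remained had Mueller glia sums from 308 CPM (TGFB1 replicate 2) to 554 CPM (GFP replicate 3). The part of other cells' RNA in the calls of the members was not tested.

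Olfactory receptor genes are silent in most tissues, so reads on them were taken as a measure of scattered signal; the list was added after values were seen. Over 1093 such genes the mean level was 0.128 ± 0.109 CPM per kb in GFP microglia (range 0.0366 to 0.325, n = 7) and 0.142 ± 0.0900 CPM per kb in TGFB1 microglia (n = 7). In non-microglia it was 0.0196 ± 0.0101 CPM per kb with GFP and 0.0221 ± 0.00415 CPM per kb with TGFB1 (n = 2 each). All 14 microglia libraries lay above the 4 non-microglia libraries. A count was found in 92.8% of the genes over the 7 GFP microglia libraries and in 20.0% over the 2 GFP non-microglia libraries, with more libraries in the former. Pou4f1 in microglia lay at this level, at 0.952-fold with GFP and 1.01-fold with TGFB1. Thy1 lay 2.25-fold and 1.24-fold above it, Slc17a6 7.04-fold and 3.84-fold, Rbpms 8.67-fold and 7.05-fold, Nefm 13.5-fold and 8.21-fold, and Nefl 50.7-fold and 32.2-fold. Non-microglia had a lower olfactory receptor level, and there the folds over it were mostly larger. In GFP non-microglia they were 1.59 for Pou4f1, 24.5 for Thy1, 8.86 for Slc17a6, 32.2 for Rbpms, 26.8 for Nefm and 106 for Nefl. In TGFB1 non-microglia they were 4.69, 9.77, 2.71, 16.7, 46.8 and 149 for the same genes in that order. The part of the scattered signal in the differences of the members between fractions was not tested. Without the 4 microglia libraries of highest olfactory receptor level, 3 members were called higher and 1 lower in GFP retinas, and 2 and 1 in TGFB1 retinas.

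TGFB1 was compared with GFP within each fraction. In microglia 3 members passed the filter and none was called, against 0.310% of all 10970 genes tested, with 0.237% higher and 0.0729% lower (edgeR; none of the 3 had an unadjusted p under 0.05, and DESeq2 and limma voom called none). The log2 difference of TGFB1 minus GFP was -0.50 for Nefl (SE 0.27, 95% interval -1.06 to 0.06), -0.55 for Nefm (SE 0.27, -1.11 to 0.01) and -0.15 for Rbpms (SE 0.25, -0.65 to 0.36), with edgeR adjusted p of 0.811, 0.759 and 0.957. The intervals of the neurofilament genes lay mostly below 0. Some markers of other retinal cells also had lower sums in TGFB1 microglia, without being called. The summed Mueller glia level was 446 ± 145 CPM against 582 ± 203 CPM with GFP (n = 7 each), and the amacrine cell level 40.4 ± 36.6 against 69.8 ± 63.7 CPM. Without GFP replicate 2 the GFP sums were 540 ± 186 and 46.9 ± 21.6 CPM. Bipolar cell markers, at 46.1 ± 38.3 against 70.1 ± 81.5 CPM, turned direction without that library, with 40.1 ± 21.3 CPM for GFP. Of 9 Mueller glia genes tested, 8 had a negative log2 difference and 0 were called. Their part in the values of Nefl and Nefm was not tested. Slc17a6, whose lowest, median and highest values were 1.37, 5.96 and 8.15 CPM with GFP and 0.726, 2.33 and 6.30 CPM with TGFB1, did not pass the filter of that comparison.

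In non-microglia 4 members passed the filter and none was called, against 0.390% of all 13598 genes, with 0.338% higher and 0.0515% lower (edgeR; 0 at an unadjusted p under 0.05, and none by DESeq2 or limma voom). Nefl had a log2 difference of 0.64 (SE 0.45, 95% interval -0.30 to 1.58), Nefm 0.95 (SE 0.55, -0.17 to 2.08), Rbpms -0.77 (SE 0.61, -2.04 to 0.50) and Gap43 -0.21 (SE 0.38, -0.996 to 0.57). With 2 libraries per group, the intervals are wide. Leaving out 1 GFP library moved Nefl to 1.72 or 0.06 (without the first or the second). Of 10 synaptic genes tested in non-microglia, 2 were called higher with TGFB1. One was Snap25, a protein of vesicle fusion, which rose by 0.61 on the log2 scale (edgeR adjusted p = 0.000539). Bipolar cell markers were also higher there, 6 of 9 by the same test, with sums of 2195 ± 209 against 1414 ± 56.4 CPM (n = 2 each), and their part in the synaptic genes was not tested. None of the further ganglion cell or axon genes was called in either fraction.

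The difference between the treatment effects in microglia and in non-microglia, which is also the difference of the fraction comparison between treatments, was tested for 5 members. None was called, against 0.0131% of all 15321 genes, and 1 had an unadjusted p under 0.05 (edgeR). This was Nefm, at -1.49 (SE 0.63, 95% interval -2.78 to -0.19, unadjusted p = 0.0265, adjusted p = 0.99995). Nefl had -1.11, Rbpms 0.63, Slc17a6 0.60 and Gap43 -0.40. Nefl and Nefm passed the fraction test in GFP and not in TGFB1 retinas, and Rbpms the reverse, but by this test no member's fraction difference was shown to differ between the treatments.

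Nefl was the one member with a mean of at least 10 CPM over the microglia libraries. After subtracting treatment means, the genes whose log2(CPM + 1) followed it most closely over the 14 microglia libraries were Cnn3, Sgcb and Micu3, with Pearson r of 0.86, 0.85 and 0.85. These are the highest of many genes over few libraries and are given as a description. All levels share the depth of the same libraries.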

How the data were processed

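The file the authors deposited holds unscaled read counts by Ensembl gene for 18 libraries, all of them used. The submitters' processing notes name STAR, the GRCm38.p6 build, featureCounts and DESeq2. Versions, annotation release and strand setting: not given in the sources used here. Per the labels' protocols, libraries of polyA RNA were made by a modified Smart-Seq2 protocol. The values are whole numbers, and column totals differ, as in raw counts.

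Symbols, positions and exon bases were taken from GENCODE M21, which matched 54409 of 54532 identifiers. Groups came from the sample titles. Tests were edgeR's quasi-likelihood F tests (version 4.0.16, R 4.3.3) after filterByExpr and TMM scaling, with robust fitting and Benjamini-Hochberg adjustment over all genes tested. A gene was called at an adjusted p under 0.05. The fractions and the difference of effects came from one fit of 18 libraries with 4 groups, and each treatment comparison from the libraries of its fraction. Standard errors are the log2 difference divided by the square root of F, intervals are at 95%, and levels are CPM on TMM-scaled library sizes. A ratio of pooled levels uses the summed counts of a group, with an exact binomial interval. The GFP and TGFB1 fraction comparisons share no libraries.

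The members and lists were chosen with earlier results of these data known. The rule named all 10 members, up to 4 called genes per direction of each list in GFP retinas with the smallest p, and list members called in a treatment comparison; of the marker lists of other cell types only sums and counts are given here. Results of 2 genes are not reported. Genes most like a member were named for members with at least 10 CPM. Alternatives were RLE factors, library totals, no rRNA repeat genes, no filter, no robust dispersion, DESeq2 1.42.0, limma 3.58.1 voom with quality weights, a replicate block and each library left out. Added after the counts were seen were leaving out the 3 libraries of highest Mueller glia level or the 4 of highest olfactory receptor level, using the letter G or H in the column names, whose meaning is not stated, and list sums without each microglia library.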

Additional observations from a re-analysis of the deposited data

Results flagged for a closer look

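Among the 20 combinations of a member and a microglia group of 7 libraries, 3 had a single library far from the others. For normally distributed values, about 1 in 20 groups is picked out this way by chance. That rate does not hold for counts this low, so the number expected by chance is not known here. Nefh stood at 4.65 CPM in GFP microglia replicate 2, against 1.84 CPM in the next library. Pou4f1 stood at 2.10 CPM in TGFB1 microglia replicate 6, against 0.865 CPM in the next. Gap43 stood at 2.80 CPM in the same TGFB1 library, against 0.777 CPM in the next. GFP replicate 2 and TGFB1 replicate 6 are also among the 3 microglia libraries with the highest Mueller glia level. Each value rests on a few counts.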

How the results depend on the processing

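The members called higher in microglia numbered 3 in GFP retinas and 2 to 3 under the 11 alternatives, and 2 in TGFB1 retinas, where library totals in place of TMM left 0. Leaving out each library in turn gave 0 to 3 in GFP retinas, with 0 without GFP non-microglia replicate 2, and 1 to 2 in TGFB1 retinas. In the fraction comparisons Gap43 was called lower under all 11 alternatives and with each library left out. In TGFB1 retinas the fraction difference was -0.012 for Nefl and -0.30 for Nefm with library totals, and -0.011 for Nefm with the libraries whose column names carry the letter H alone; with single libraries left out Nefm ran from -0.10 to 0.61. The difference of effects turned for Gap43 to 0.19 with limma voom, to 0.10 without the 3 libraries of highest Mueller glia level and to 0.50 without the 4 of highest olfactory receptor level. With single libraries left out it ran from -1.37 to 0.35 for Gap43 and from -0.30 to 3.42 for Slc17a6. The cause of these changes was not tested. Treatment comparisons and the difference of effects called 0 members in every alternative. With a replicate block they also called 0. Same-numbered GFP and TGFB1 microglia libraries had correlations of -0.12 to 0.22, over 0.1 in 5 of 7 pairs. Of the 7 GFP libraries, 1 correlated best with its own number. Pairing by number is neither shown nor excluded by these values. No paired analysis was possible for the fractions because they share fewer than 2 numbers. The 2 non-microglia libraries per treatment and the 50 to 147 member counts per library limit what could be detected.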

Other observations

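Chrna6 and Chrnb3, nicotinic receptor subunits of ganglion cells, were not called in any comparison. Chrna6 stood at 14.8 ± 9.01 CPM in GFP microglia (SD, n = 7) and 5.77 ± 5.12 CPM in TGFB1 microglia (n = 7), against 7.31 ± 3.34 and 7.41 ± 3.17 CPM in the non-microglia (n = 2 each). Chrnb3 stood at 11.05 ± 8.23 and 4.35 ± 2.30 CPM in microglia, against 5.44 ± 3.16 and 6.94 ± 7.09 CPM. In microglia the log2 difference of TGFB1 minus GFP was -1.42 for Chrna6 (edgeR, unadjusted p = 0.0118, adjusted p = 0.497) and -1.36 for Chrnb3 (adjusted p = 0.440). Cartpt, a peptide precursor found in some ganglion cells, stood at 5.36 ± 3.96 CPM in GFP microglia and 1.64 ± 1.38 CPM in GFP non-microglia and was not called (log2 difference 1.60, edgeR adjusted p = 0.107). These 3 genes were chosen after their values were seen.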
